A study of Mus musculus with 36 samples.

Results

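The comparison described here asks what the loss of caspase-1 changed in the transcripts of embryonic intestine that carries a catalytically inactive caspase-8 and cannot undergo necroptosis. RNA was sequenced from intestines of untreated E18.5 mouse embryos on a C57BL/6N background. Casp8 C362A/C362A Mlkl-/- Casp1-/- embryos (3 libraries, called Casp1-deficient below) were compared with Casp8 C362A/C362A Mlkl-/- embryos (3 libraries, called Casp1-intact), and these 6 libraries were taken by their genotype labels from the 36 of the whole series. Both groups therefore shared the knock-in of Casp8 C362A, in which the catalytic cysteine is replaced, and the deletion of Mlkl. The groups differed in Casp1. Intestines of Mlkl-/- embryos (3 libraries, titled in the scheme of the C362A libraries, out of 6) served as the reference without either change. Casp8 D387A/D387A Cflar-/- Mlkl-/- intestines with and without Casp1 (3 libraries each), which carry a caspase-8 that cannot process itself and lack cFLIP, served as the other background in which Casp1 was removed. No Mlkl-/- Casp1-/- intestine with wild-type Casp8 was analysed here, so an effect of Casp1 loss on its own cannot be told apart from one that needs the mutant Casp8. All alleles were present in every cell of the embryo, and the labels number the libraries of a genotype as biological replicates without naming litters.

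Caspase-8 restrains necroptosis, a lytic death in which RIPK3 phosphorylates the pore-forming protein MLKL. With catalytic activity lost and MLKL absent, the caspase-8 protein is known to serve as a scaffold in the intestine that leads to activation of caspase-1. Caspase-1 is the protease of inflammasomes. It cleaves the precursors of interleukin (IL)-1β and IL-18 and the pore-forming protein gasdermin D, which lyses the cell in pyroptosis. The fetal small intestine at this age is building villi whose enterocytes begin to make the enzymes, transporters and apolipoproteins used for milk after birth, and it has not yet met a microbiota.

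Promoters of 5 genes are printed first because the results below divide inflammatory genes into those that fell without Casp1 and those that did not, and these genes stand for both. Each sequence is the 250 bases before the start of the gene in RefSeq on GRCm38.p6, written 5′ to 3′ along the gene's strand, and capitals mark the letters that match a motif. The ISRE-type motif is GAAA, any 2 bases and GAAA, the core of the interferon-stimulated response element bound by IRF proteins, and the κB-type motif is GGGA, any 3 bases and TCC, as bound by NF-κB. Both strands were searched. The sequences of Cxcl9 (chr5:92328080-92328329, minus strand), Gbp2 (chr3:142620413-142620662, plus strand), Cxcl2 (chr5:90903649-90903898, plus strand), Cxcl10 (chr5:92348890-92349139, minus strand) and Isg15 (chr4:156200819-156201068, minus strand) follow.
Cxcl9: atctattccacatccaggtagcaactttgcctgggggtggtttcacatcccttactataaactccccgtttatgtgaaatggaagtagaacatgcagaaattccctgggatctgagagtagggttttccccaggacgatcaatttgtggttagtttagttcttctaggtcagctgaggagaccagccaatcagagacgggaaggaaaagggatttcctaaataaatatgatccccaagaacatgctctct
Gbp2: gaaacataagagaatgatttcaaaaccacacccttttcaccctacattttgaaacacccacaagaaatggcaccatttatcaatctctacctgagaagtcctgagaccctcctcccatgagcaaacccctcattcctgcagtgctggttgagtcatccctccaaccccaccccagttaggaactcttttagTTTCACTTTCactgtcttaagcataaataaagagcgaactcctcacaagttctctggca
Cxcl2: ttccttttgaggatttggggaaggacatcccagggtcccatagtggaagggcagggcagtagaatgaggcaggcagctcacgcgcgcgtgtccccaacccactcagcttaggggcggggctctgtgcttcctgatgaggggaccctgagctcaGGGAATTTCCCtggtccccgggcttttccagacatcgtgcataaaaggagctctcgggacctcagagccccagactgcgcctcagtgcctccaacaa
Cxcl10: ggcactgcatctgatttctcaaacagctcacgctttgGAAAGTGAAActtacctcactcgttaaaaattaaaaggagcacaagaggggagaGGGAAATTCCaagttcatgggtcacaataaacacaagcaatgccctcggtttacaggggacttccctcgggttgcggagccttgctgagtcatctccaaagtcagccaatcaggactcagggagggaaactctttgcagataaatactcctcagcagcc
Isg15: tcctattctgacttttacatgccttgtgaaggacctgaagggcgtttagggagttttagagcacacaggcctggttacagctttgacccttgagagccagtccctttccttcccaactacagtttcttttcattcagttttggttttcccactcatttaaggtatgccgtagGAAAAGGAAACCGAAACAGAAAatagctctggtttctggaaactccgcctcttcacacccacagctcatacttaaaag

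The promoter of Gbp2 held 1 ISRE-type match, from 59 to 50 bases before the start, and that of Cxcl10 held 1 from 213 to 204 bases before it. The promoter of Isg15 held 3 overlapping ISRE-type matches between 78 and 57 bases before the start. Cxcl2 held 2 overlapping κB-type matches between 97 and 87 bases before the start, and Cxcl10 held 1 from 159 to 150. The window of Cxcl9 held neither motif in these letters. Among the 27025 genes with a promoter in the reference table, 3.46% held the ISRE-type motif and 4.41% held the κB-type motif within 250 bases. Of the interferon-stimulated antiviral genes listed for this report, 13 of the 29 with a promoter (44.8%) held the ISRE-type motif, as did the promoters of 5 guanylate-binding proteins, all of those in the table. Of the neutrophil chemokines and growth factors, 3 of 6 (50%) held the κB-type motif. Among the 12890 genes tested that had a promoter in the table, 3.36% held the ISRE-type and 5.42% the κB-type motif. For genes that fell after Casp1 loss these shares were 6.98% and 6.46%, and for genes that rose 4.78% and 5.6%. These shares describe letters only, and a match is not evidence that a factor was bound.

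The 6 libraries held between 25509179 and 28234479 reads on genes. Reads on genes made up 75.6% to 81.4% of the deposited library total in Casp1-intact and 80.1% to 82.5% in Casp1-deficient intestines. The 10 genes with most reads held 4.63% to 5.13% of the reads in Casp1-intact libraries, 7.88% to 9.23% in Casp1-deficient libraries and 7.29% to 9.29% in Mlkl-/- libraries. TMM scaling, which offsets such differences in composition, gave factors of 1.03 to 1.10 and 0.857 to 0.882. Transcript levels are given as RPKM on those scaled library sizes, so that levels can be compared between genes, and values of single libraries follow the order of the replicate numbers.

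Casp1 reads separated the groups as the labels say. Casp1 (chromosome 9, 5298517 to 5307265, GRCm38) was at 75.8, 83.0 and 80.9 RPKM in Casp1-intact libraries and at 0.0537, 0 and 0.0546 RPKM in Casp1-deficient libraries, and in Mlkl-/- intestine its mean was 40.5 RPKM. Casp8 was at 48.8 ± 1.33 RPKM (SD, n = 3) with Casp1 and at 40.7 ± 1.86 without it, a log2 fold change of -0.26 ± 0.12 (SE) that was not called. Reads on Mlkl remained detectable, with 15, 18 and 17.8 RPKM in Casp1-intact and 28.0, 30.8 and 24.0 RPKM in Casp1-deficient intestine, against a mean of 1.42 RPKM in Mlkl-/- intestine. The reads do not show where in the gene they fall, so the Mlkl label could not be checked from them.

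Loss of Casp1 changed many transcripts in both directions. Of 19408 genes tested, 1086 rose (5.6%) and 1110 fell (5.72%) at a log2 fold change beyond 1 with an adjusted p under 0.05 (quasi-likelihood test of edgeR, Benjamini-Hochberg adjustment). The 3 libraries of one group lay wholly above or below the 3 of the other at 53.5% of genes tested, and the median log2 fold change of all genes was -0.02. The balance of the directions rested on the scaling. With library totals alone the median of all genes moved to -0.30, and 667 genes rose and 1923 fell, so that 25.8% of called genes rose in place of 49.5%. Because whole intestine was sequenced, fewer cells of a type and less RNA per cell cannot be told apart in any of these values.

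**Figure D1:**
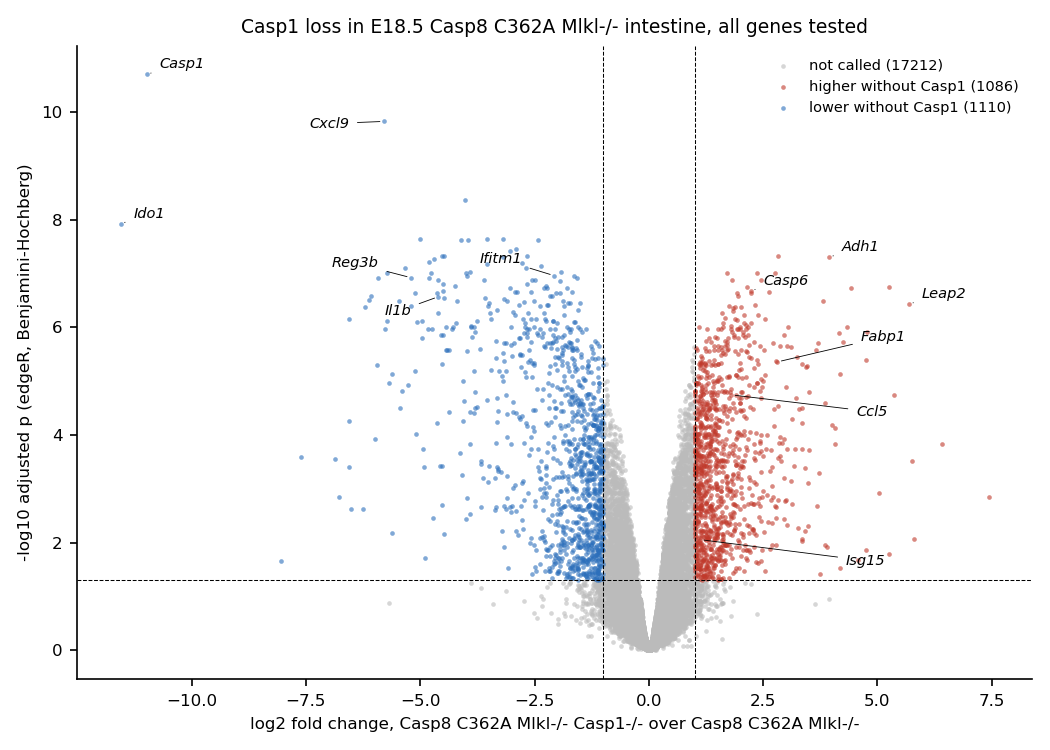
Log2 fold change of each of 19408 genes with Casp1 loss (x axis) against -log10 of its adjusted p (y axis). Dashed lines mark the thresholds, blue points the 1110 genes that fell and red points the 1086 genes that rose; Casp1, Ido1 and Cxcl9 lie at the far left and Leap2 and Adh1 at the right.

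Ido1, which encodes the tryptophan-degrading enzyme indoleamine 2,3-dioxygenase, led the falls of the genes that met the rule for naming. It was at 35.5, 31.5 and 23.6 RPKM in Casp1-intact intestine and at 0, 0 and 0.0224 RPKM in Casp1-deficient intestine. This was 4597 reads against 1, a ratio of 4046 with a 95% counting interval of 726 to 159829.7 (adjusted p = 1.2e-08). Ctla4, an inhibitory receptor of activated and regulatory T cells, had 357 reads against 3, a ratio of 105 (counting interval 35.5 to 510.2). Reg2, a regenerating-family lectin, had 105 reads with Casp1 and none without it, which makes it at least 30.8-fold lower against a floor of 3 reads over the group. Its call was lost without Casp1-intact replicate 1 (adjusted p = 0.054) or without Casp1-deficient replicate 1 (0.053) or 2 (0.05). Tarm1, a myeloid immunoreceptor, fell from 3.71 ± 0.609 to 0.0532 ± 0.0423 RPKM (SD, n = 3; log2 fold change -6.07 ± 0.43, adjusted p = 2.6e-07).

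**Figure D2:**
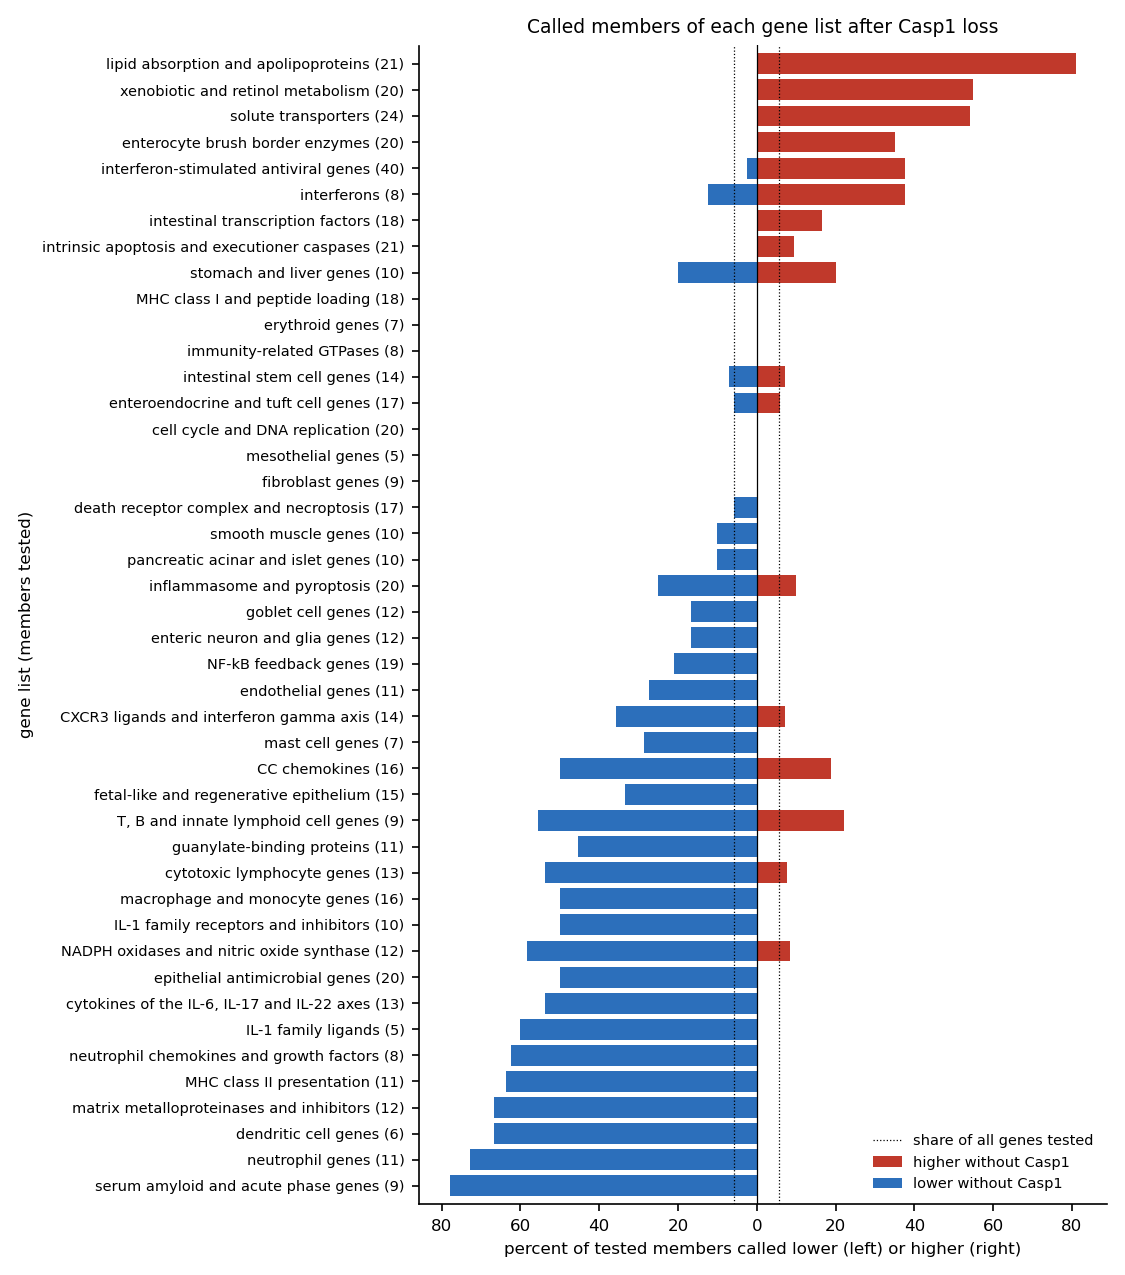
Percent of the tested members of each gene list called lower (blue, left) or higher (red, right) after Casp1 loss, with the number of members tested in parentheses. Dotted lines mark the shares of all genes tested, 5.72% lower and 5.6% higher; the lists of absorptive enterocytes and of interferon-stimulated genes stand at the top and the neutrophil, acute phase and matrix metalloproteinase lists at the bottom.

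Inflammasome components moved apart from one another. Of 20 tested members, 2 rose and 5 fell, Casp1 among the latter. Pycard, which encodes the adaptor ASC that bridges sensors to caspase-1, was at 79.3, 82.8 and 79.3 RPKM with Casp1 and 173, 189 and 166 RPKM without it, higher in all 3 libraries (log2 fold change 1.13 ± 0.24, adjusted p = 0.0025). Nlrp6, an inflammasome sensor of the gut epithelium, rose from 24.7 ± 4.42 to 59.1 ± 1.44 RPKM (SD, n = 3), close to its mean of 58.2 RPKM in Mlkl-/- intestine. Both calls ended with library totals as the scaling, where the log2 fold changes were 0.85 and 0.99.

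Nlrp3 and Mefv, sensor genes of myeloid cells, fell. Nlrp3 went from 1.48, 2.05 and 2.26 RPKM to 0.248, 0.287 and 0.373 RPKM (log2 fold change -2.67 ± 0.23, adjusted p = 1.1e-06). Mefv, which encodes pyrin, went from 3.50 ± 0.499 to 0.237 ± 0.0605 RPKM (SD, n = 3). Gsdmd, the gasdermin that caspase-1 cleaves, was at 199, 213 and 215 RPKM with Casp1 and at 299, 337 and 291 RPKM without it, and its log2 fold change of 0.56 ± 0.13 (adjusted p = 0.005) lay under the threshold. Casp4, the mouse caspase-11 gene that lies next to Casp1, was likewise at 75.5 ± 8.49 and 111 ± 9.32 RPKM and was not called (log2 fold change 0.55 ± 0.15). The adjacent gene therefore did not lose its transcripts in the Casp1-deficient embryos.

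Of 36 tested genes within 5000000 bases of Casp1, 6 fell (16.7%) and 0 rose, beside 5.72% lower and 5.6% higher of all genes tested. The genes that fell were Mmp7, Mmp8, Mmp10, Mmp12, Mmp13 and the pseudogene Cbx3-ps8, 5 of them in the cluster of matrix metalloproteinase genes that begins at position 7272514. Mmp20 and Mmp27 of that cluster were not called, nor were the genes between it and Casp1.

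Ligands of the IL-1 family fell in part. Il1b, whose precursor caspase-1 cleaves, was at 44.1, 43.5 and 47.6 RPKM with Casp1 and at 1.90, 2.27 and 1.42 RPKM without it, near the 1.43 RPKM of Mlkl-/- intestine (log2 fold change -4.60 ± 0.33, adjusted p = 2.7e-07). Il1f9, which encodes IL-36γ, fell from 2.73 ± 1.24 to 0.0418 ± 0.0527 RPKM (SD, n = 3), and the alarmin Il33 fell from 14.7 ± 1.74 to 4.59 ± 1.43 RPKM. Il1a overlapped between the groups, with 20.7, 15.7 and 25.0 RPKM against 20.8, 16.9 and 19.6 RPKM, and both groups lay above its mean of 6.18 RPKM in Mlkl-/- intestine. Its log2 fold change was -0.10 ± 0.43, and 0.07 without Casp1-intact replicate 3. Il18, the other cytokine that caspase-1 matures, was at 27.4 ± 4.52 and 45.3 ± 5.76 RPKM and was not called (log2 fold change 0.73 ± 0.20).

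The list of IL-1 family ligands had 3 members lower and 0 higher of 5 tested. Receptors and inhibitors of the family had 5 lower and 0 higher of 10 tested, with a median log2 fold change of -0.96. The decoy receptor Il1r2 was at 28.1, 32.9 and 34.7 RPKM with Casp1 and at 1.13, 1.32 and 1.21 RPKM without it, so that the lowest Casp1-intact library held more than any Casp1-deficient one (log2 fold change -4.70 ± 0.27, adjusted p = 5.4e-08). Il1rn, which encodes the IL-1 receptor antagonist, fell from 21.2 ± 5.88 to 1.13 ± 0.412 RPKM (SD, n = 3).

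Transcripts that mark neutrophils fell with them. Of 11 tested members of this list 8 fell and 0 rose, with a median log2 fold change of -3.16. The summed level of the list was 593 to 733 RPKM in Casp1-intact, 55.6 to 80.1 RPKM in Casp1-deficient and 20.1 to 54.8 RPKM in Mlkl-/- libraries, and all 12 members had a read in each of these groups. S100a8, a subunit of calprotectin, was at 223, 264 and 272 RPKM with Casp1 and at 10.7, 11.8 and 8.16 RPKM without it, which is about its mean of 9.96 RPKM in Mlkl-/- intestine. Its partner S100a9 fell from 356 ± 44.0 to 15.2 ± 2.81 RPKM (SD, n = 3). Cxcr2, the chemokine receptor by which neutrophils leave the blood, fell from 4.21 ± 0.869 to 0.103 ± 0.0298 RPKM, and Retnlg fell from 16.2 ± 1.07 to 0.561 ± 0.111 RPKM. Ltf, which encodes the granule protein lactoferrin, was an exception at 25.2 ± 1.82 and 38.6 ± 8.70 RPKM (log2 fold change 0.61 ± 0.37, not called).

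Chemokines and growth factors that draw or sustain neutrophils had 5 members lower and 0 higher of 8 tested, with a median log2 fold change of -2.92. One member, Csf2, lay at 1.05 (adjusted p = 0.059), and 1 member was called higher with DESeq2, without the filter, with the groups compared alone and without Casp1-deficient replicate 3. Cxcl5 fell from 6.31, 6.69 and 8.97 RPKM to 0.485, 0.343 and 0.234 RPKM (log2 fold change -4.36 ± 0.41, adjusted p = 2.6e-06). Cxcl3 fell from 1.74 ± 0.446 to 0.0527 ± 0.0913 RPKM (SD, n = 3). Cxcl2, whose promoter above held the overlapping κB-type matches, was at 7.41, 13.8 and 10.2 RPKM with Casp1 and at 1.77, 1.88 and 1.17 RPKM without it, lower in all 3 libraries but still well above its mean of 0.0428 RPKM in Mlkl-/- intestine (log2 fold change -2.70 ± 0.28).

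CC chemokines, which attract monocytes, dendritic cells and lymphocytes, moved in both directions, with 8 members lower and 3 higher of 16 tested. Ccl22 fell from 6.51 ± 1.65 to 0.208 ± 0.167 RPKM, Ccl3 from 7.95 ± 2.41 to 0.322 ± 0.147 RPKM and the eosinophil attractant Ccl24 from 84.2 ± 15 to 4.92 ± 0.0627 RPKM (SD, n = 3 each). Ccl5, an interferon-responsive chemokine, rose instead, from 32.5, 41.0 and 46.1 RPKM to 154, 168 and 95.3 RPKM (log2 fold change 1.80 ± 0.21, adjusted p = 1.8e-05). The epithelial chemokines Ccl20 and Ccl25 also rose, from 9.32 ± 2.29 to 43.9 ± 5.15 RPKM and from 57.5 ± 4.89 to 221 ± 20.4 RPKM. Ccl25 had been lower with Casp1 than in Mlkl-/- intestine, where its mean was 136 RPKM, whereas Ccl20 had not (1.37 RPKM).

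Cytokines of the IL-6, IL-17 and IL-22 axes and their receptors had 7 members lower and 0 higher of 13 tested, and the median log2 fold change was -1.46. Osm, a myeloid cytokine of the IL-6 family, fell from 2.90 ± 0.127 to 0.222 ± 0.0643 RPKM (SD, n = 3). Il27 fell from 1.14 ± 0.0265 to 0.187 ± 0.0599 RPKM. Socs3, a feedback inhibitor that STAT3 induces, was at 74.5, 55.8 and 56.9 RPKM with Casp1 and at 21.9, 24.1 and 22 RPKM without it, below its mean of 34.9 RPKM in Mlkl-/- intestine (log2 fold change -1.46 ± 0.18, adjusted p = 2.7e-05).

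Among interferon genes Ifng fell, and Ifnb1, Ifnl2 and Ifnl3 rose from very low levels. Ifng, which encodes type II interferon, had 94 reads in Casp1-intact and 3 in Casp1-deficient intestine, a ratio of 27.6 (counting interval 9.15 to 136; adjusted p = 5.9e-05). Ifnb1, a type I interferon gene, was at 0.193, 0.380 and 0.241 RPKM with Casp1, at 1.98, 3.22 and 2.40 RPKM without it, and without a read in Mlkl-/- intestine (log2 fold change 3.19 ± 0.39, adjusted p = 0.00018). Of the other type I genes on the list, Ifna1, Ifna2 and Ifna5 had no read in any of the 6 libraries, and Ifna4 had 1 read in each group. The type III gene Ifnl2 rose from 0.103 ± 0.0895 to 1.24 ± 0.0859 RPKM and Ifnl3 from 0.165 ± 0.0954 to 1.5 ± 0.203 RPKM (SD, n = 3). Reads that match both of these near-identical genes may be missing or misplaced. Over the interferon list, 3 of 8 tested members rose and 1 fell.

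Genes that respond to interferons followed the same division in part. Of 40 interferon-stimulated antiviral genes tested, 15 rose and 1 fell, with a median log2 fold change of 0.87. The count of rises depended on scaling and on 1 library, since 3 rose with library totals alone, where the median was 0.60, and 8 rose without Casp1-deficient replicate 2. The summed level of the list was 7780.1 to 8731 RPKM in Casp1-intact, 13288 to 15291 RPKM in Casp1-deficient and 495 to 682 RPKM in Mlkl-/- libraries. None of the 3 groups overlapped in this sum.

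Isg15, the ubiquitin-like modifier whose promoter above held 3 ISRE-type matches, was at 1312, 1275 and 1489 RPKM with Casp1 and at 2689, 3293 and 2863 RPKM without it (log2 fold change 1.12 ± 0.29, adjusted p = 0.0088), and at 0.84 under library totals it was no longer called. Ifit3, which binds viral RNA complexes, rose from 295 ± 30.0 to 780.3 ± 84.2 RPKM (SD, n = 3). Apol9b rose from 19.7 ± 1.88 to 53.4 ± 10.2 RPKM, and Oas1g, a sensor that activates RNase L, rose from 50.4 ± 5.21 to 124 ± 6.67 RPKM. Zbp1, a nucleic acid sensor that can engage RIPK3, was at 136 ± 3.79 and 166 ± 31.5 RPKM with overlapping libraries (log2 fold change 0.29 ± 0.21).

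Ifitm1 was the member of this list that fell. This membrane protein restricts viral entry and, in the intestine, is also expressed by progenitor cells of the epithelium. It was at 114, 97.9 and 97.9 RPKM with Casp1 and at 22.1, 27.0 and 24.4 RPKM without it, with no overlap and near its mean of 21.2 RPKM in Mlkl-/- intestine (log2 fold change -2.07 ± 0.13, adjusted p = 1.1e-07).

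**Figure D3:**
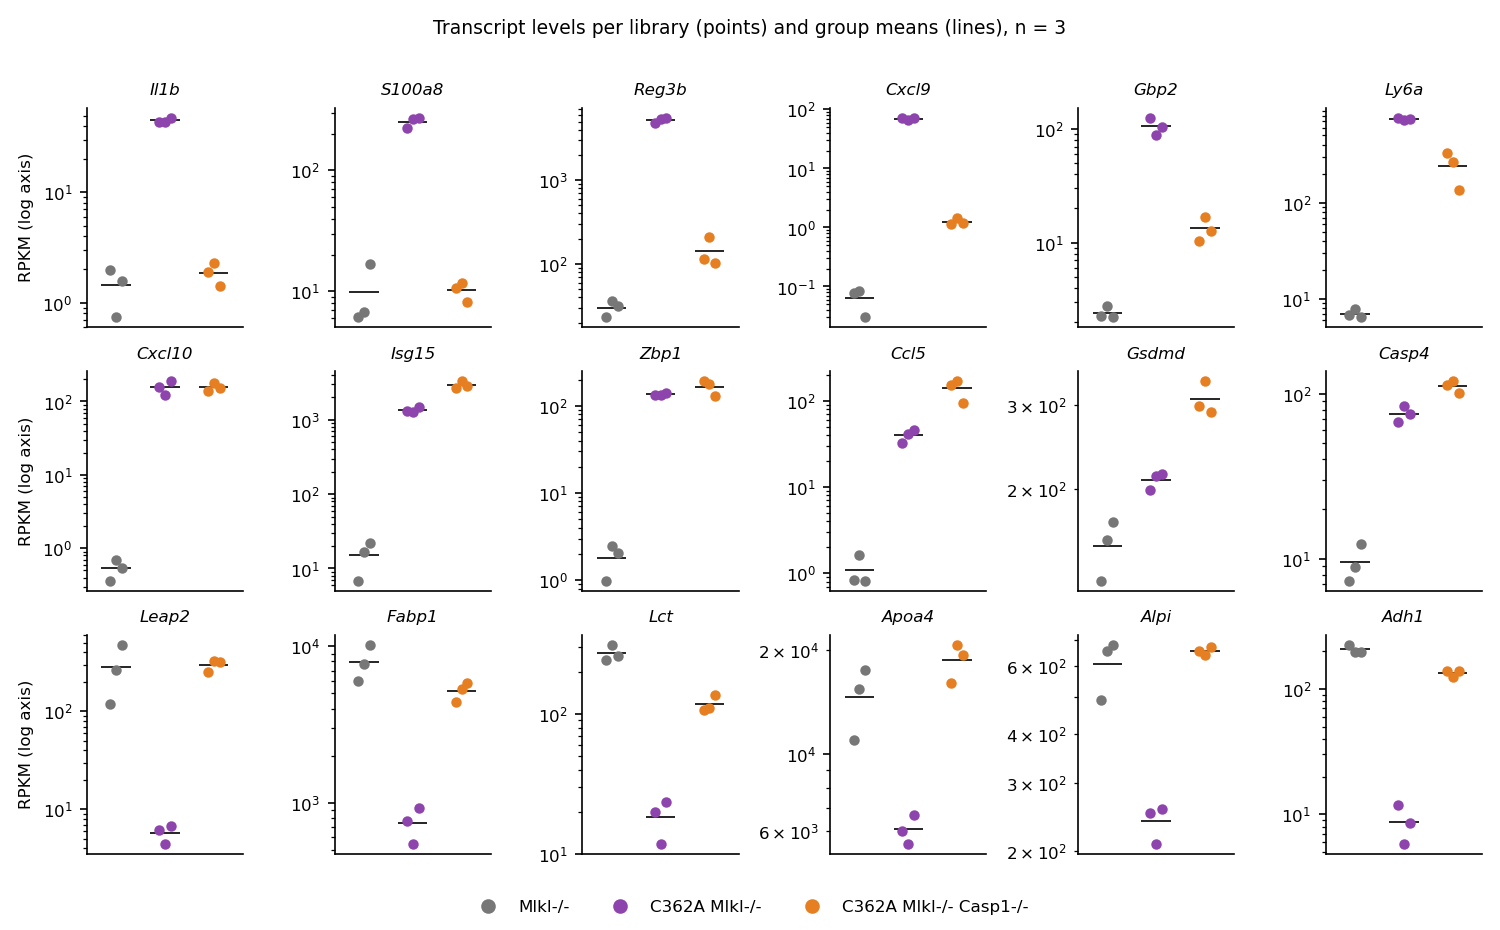
Transcript level of 18 genes in each library (points, RPKM on a log axis that differs between panels) and the group mean (lines) in Mlkl-/-, Casp8 C362A Mlkl-/- and Casp8 C362A Mlkl-/- Casp1-/- intestine, n = 3 each. In the top row the orange points lie below the purple points, in the middle row they lie beside or above them, and in the bottom row they move toward or past the grey points.

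Genes tied to interferon γ divided again. The list of CXCR3 ligands and the interferon γ axis had 5 members lower and 1 higher of 14 tested and a median log2 fold change of -0.07. Cxcl9, a ligand of CXCR3 that interferon γ induces strongly, was at 71.9, 65.2 and 72.0 RPKM with Casp1 and at 1.13, 1.47 and 1.17 RPKM without it (log2 fold change -5.79 ± 0.18, adjusted p = 1.5e-10). Cxcl10, a ligand of the same receptor that type I interferon also induces, overlapped between the groups, with 155, 122 and 188 RPKM against 141, 177 and 152 RPKM (log2 fold change 0.01 ± 0.21, and -0.25 with library totals, -0.13 without Casp1-intact replicate 2 and -0.09 without Casp1-deficient replicate 2). Cxcl11, the remaining ligand, was at 6.73 ± 1.25 and 13.6 ± 2.68 RPKM, and its log2 fold change of 1.01 ± 0.22 passed the threshold so narrowly that it lost its call under library totals (0.73), without the filter on low counts (1.00) and without Casp1-intact replicate 1 (0.89) or 2 (0.99) or Casp1-deficient replicate 2 (0.83). Irf1, a transcription factor induced by interferons, was at 138 ± 4.63 and 125 ± 12.3 RPKM and was not called.

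Guanylate-binding proteins, GTPases that attack the vacuoles of intracellular microbes, had 5 members lower and 0 higher of 11 tested. Gbp2 fell from 125, 88.1 and 103 RPKM to 10.4, 17.0 and 12.8 RPKM, still above its mean of 2.42 RPKM in Mlkl-/- intestine (log2 fold change -2.97 ± 0.23, adjusted p = 5.3e-07). Gbp2b fell from 4.10 ± 0.724 to 0.581 ± 0.186 RPKM and Gbp11 from 5.01 ± 0.532 to 0.712 ± 0.343 RPKM (SD, n = 3). Gbp3 did not fall, at 74.7 ± 9.01 and 113 ± 10.1 RPKM (log2 fold change 0.59 ± 0.21, not called). The family's genes are close copies, and only unique alignments were kept, so reads that match several of them may be missing or misplaced.

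Immunity-related GTPases, the other family of this kind, had no member called among 8 tested, although all 8 were higher than in Mlkl-/- intestine both with and without Casp1. With library totals, or without Casp1-intact replicate 1 or Casp1-deficient replicate 1 or 2, 1 member was called lower. Their median log2 fold change was 0.07, and -0.20 with library totals. Igtp, also known as Irgm3, was at 272, 234 and 280.4 RPKM with Casp1 and at 290.2, 349 and 309 RPKM without it (log2 fold change 0.27 ± 0.22, and -0.00 with library totals), against 6.96 RPKM in Mlkl-/- intestine.

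Antigen presentation separated by class. Of 18 MHC class I and peptide-loading genes tested, 0 rose and 0 fell, with a median log2 fold change of 0.49. B2m, the invariant chain of class I molecules, was at 2042 ± 83.0 and 2974 ± 363 RPKM (SD, n = 3; log2 fold change 0.54 ± 0.20, not called). Of 11 class II genes 7 fell and 0 rose, with a median of -1.22. Ciita, the transactivator of the class II genes, was at 1.33, 1.78 and 1.01 RPKM with Casp1 and at 0.375, 0.127 and 0.202 RPKM without it (log2 fold change -2.54 ± 0.34, adjusted p = 7.1e-05). The peptide-exchange genes H2-DMb2 and H2-DMa fell from 2.75 ± 0.137 to 0.606 ± 0.178 RPKM and from 14.9 ± 1.95 to 4.79 ± 0.411 RPKM.

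Antimicrobial genes of the epithelium fell in number and by large amounts. Of 20 tested, 10 fell and 0 rose (1 rose without Casp1-deficient replicate 3). The summed level of the list was 7173 to 8228 RPKM with Casp1, 662 to 882 RPKM without it and 282 to 384 RPKM in Mlkl-/- intestine. Reg3b, a secreted lectin that kills bacteria, made up most of the sum with Casp1. It was at 4805, 5384 and 5532 RPKM with Casp1 and at 114, 210.1 and 103 RPKM without it, while Mlkl-/- intestine had a mean of 30.1 RPKM (log2 fold change -5.20 ± 0.33, adjusted p = 1.2e-07). Its close relative Reg3g fell from 1629 ± 99.1 to 73.1 ± 20.3 RPKM (SD, n = 3), and reads that match both genes may be missing or misplaced. Retnlb, a goblet cell product that acts on bacterial membranes, fell from 25.8 ± 3.70 to 0.469 ± 0.205 RPKM, and the secreted phospholipase Pla2g2a fell from 3.94 ± 0.404 to 0.0692 ± 0.0788 RPKM. Lcn2, which sequesters bacterial siderophores, fell from 37.1 ± 8.65 to 1.64 ± 0.130 RPKM, close to its 1.54 RPKM in Mlkl-/- intestine.

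Oxidases that make hydrogen peroxide at the epithelial surface behaved alike. Duox2 was at 33.2, 33.5 and 40.7 RPKM with Casp1 and at 1.76, 1.48 and 0.704 RPKM without it (log2 fold change -4.77 ± 0.29, adjusted p = 1e-07), and its maturation factor Duoxa2 fell from 81.9 ± 13.2 to 7.06 ± 2.07 RPKM (SD, n = 3). Acod1, which makes itaconate in activated macrophages, fell from 8.16 ± 1.35 to 0.292 ± 0.108 RPKM. Nox4 was the member of this list that rose, from 8.91 ± 1.25 to 26.1 ± 2.26 RPKM, against 21.6 RPKM in Mlkl-/- intestine. In all, 7 members fell and 1 rose of 12 tested.

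Acute phase genes had 7 members lower and 0 higher of 9 tested, with a median log2 fold change of -1.85. Serpina3n, a protease inhibitor, fell from 4.88 ± 0.808 to 0.139 ± 0.141 RPKM and Hp, which encodes haptoglobin, from 14.4 ± 1.88 to 0.730 ± 0.115 RPKM (SD, n = 3). Saa3, the most abundant member, was at 52.9, 56.3 and 48.5 RPKM with Casp1 and at 13.6, 19.4 and 10.8 RPKM without it, still above its mean of 0.189 RPKM in Mlkl-/- intestine. Feedback genes of NF-κB had 4 lower and 0 higher of 19 tested, and 7 lower with library totals. Tnfaip2 fell from 18.9 ± 1.76 to 2.55 ± 0.324 RPKM and Rel, an NF-κB subunit, from 3.22 ± 0.561 to 1.31 ± 0.156 RPKM.

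Genes of death receptor signaling and necroptosis had 0 higher and 1 lower of 17 tested, a share near that of all genes called lower (5.72%). The gene that fell was Tnfrsf1b, which encodes TNF receptor 2 (20.6 ± 1.11 to 7.5 ± 0.414 RPKM; SD, n = 3). Among 21 genes of intrinsic apoptosis and the executioner caspases, 2 rose (1 with library totals) and 0 fell, beside 5.6% of all genes called higher. Casp6, an executioner caspase gene, was at 23.3, 16.9 and 25.2 RPKM with Casp1, at 105, 101 and 101 RPKM without it and at a mean of 81.8 RPKM in Mlkl-/- intestine (log2 fold change 2.23 ± 0.15, adjusted p = 2.1e-07).

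Cytotoxic lymphocyte genes had 7 members lower and 1 higher of 13 tested. Gzmb, which encodes granzyme B, fell from 18.9, 12.5 and 14.9 RPKM to 0.644, 0.753 and 0.655 RPKM (log2 fold change -4.49 ± 0.25, adjusted p = 4.7e-08). Gzmc fell from 5.92 ± 1.42 to 0.411 ± 0.251 RPKM and the pore-forming protein gene Prf1 from 0.465 ± 0.104 to 0.0527 ± 0.00915 RPKM (SD, n = 3). Xcl1, a chemokine for cross-presenting dendritic cells, rose from 0.915 ± 0.448 to 3.20 ± 0.433 RPKM.

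Lymphoid genes as a list had 5 lower and 2 higher of 9 tested, with 3 lower without Casp1-intact replicate 3. Trac, the T cell receptor α constant gene, rose from 2.09 ± 0.370 to 6.43 ± 3.04 RPKM (SD, n = 3), against 4.68 RPKM in Mlkl-/- intestine.

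Macrophage and monocyte genes had 8 members lower and 0 higher of 16 tested. Their summed level was 597 to 609 RPKM with Casp1, 325 to 364 RPKM without it and 186 to 223 RPKM in Mlkl-/- intestine. Markers of inflammatory monocytes fell furthest, with Ly6c2 at 12.4, 10.7 and 8.54 RPKM against 0.741, 0.911 and 0.942 RPKM (log2 fold change -3.60 ± 0.23, adjusted p = 1.3e-07) and Ccr2 at 3.49 ± 0.998 against 0.531 ± 0.0524 RPKM (SD, n = 3). Lyz2 fell from 155 ± 17.7 to 34.6 ± 2.50 RPKM. Csf1r, the receptor on which resident macrophages depend, did not fall, at 46.2 ± 4.66 and 72.7 ± 2.23 RPKM (log2 fold change 0.65 ± 0.18, not called). It went against most of the list, in which 14 members had a negative log2 fold change and 2 a positive one. The macrophage gene Adgre1 was at means of 4.78 RPKM with Casp1 and 2.79 RPKM without it, with no overlap (log2 fold change -0.78 ± 0.13, not called). Of 6 dendritic cell genes 4 fell (2 without replicate 2 of either group), among them Ccr7, which guides these cells to lymph nodes (3.81 ± 1.15 to 0.165 ± 0.0556 RPKM).

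Matrix metalloproteinases and their inhibitors had 8 members lower and 0 higher of 12 tested. Mmp7, the matrilysin of Paneth cells and injured epithelium, was at 63.2, 84.3 and 71.3 RPKM with Casp1 and at 16.1, 11.3 and 6.47 RPKM without it (log2 fold change -2.69 ± 0.35, adjusted p = 6e-05). Mmp10 fell from 21.3 ± 4.66 to 3.27 ± 0.153 RPKM (SD, n = 3).

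Genes of fetal-like or regenerating epithelium had 5 members lower and 0 higher of 15 tested, a count that was 3 without Casp1-intact replicate 3 and 9 with library totals. Ly6a, also called Sca-1, was at 762, 727 and 743 RPKM with Casp1, at 332, 263 and 134 RPKM without it and at 7.02 RPKM in Mlkl-/- intestine (log2 fold change -1.61 ± 0.24, adjusted p = 0.00018). It thus fell and yet stayed far above the reference in each library. The tight junction gene Cldn4 fell from 360.4 ± 34.5 to 108 ± 11.3 RPKM (SD, n = 3), against 31.5 RPKM in Mlkl-/- intestine.

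Many absorptive enterocyte genes rose, and others were not called, among them 13 of 20 brush border enzymes. Of 21 genes of lipid absorption and the apolipoproteins, 17 rose and 0 fell, with a median log2 fold change of 1.45. Solute transporters had 13 higher and 0 lower of 24, genes of xenobiotic and retinol metabolism 11 higher and 0 lower of 20, and brush border enzymes 7 higher and 0 lower of 20. With library totals these counts of rises were 14, 8, 7 and 7, in the same order. In that setting 1 solute transporter was lower, as was 1 without Casp1-intact replicate 1.

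Leap2, which encodes a peptide made by enterocytes that antagonises the ghrelin receptor, rose most of any gene that met the rule for naming. It was at 6.2, 4.43 and 6.81 RPKM with Casp1 and at 251, 327 and 320 RPKM without it, around its mean of 286 RPKM in Mlkl-/- intestine (log2 fold change 5.69 ± 0.42, adjusted p = 3.7e-07). Nr2e3, a nuclear receptor gene, rose from 0.448 ± 0.267 to 17.1 ± 4.53 RPKM and G6pc, the glucose-6-phosphatase of gluconeogenesis, from 0.334 ± 0.161 to 8.94 ± 4.89 RPKM (SD, n = 3). Abcb11, a bile salt export pump, rose from 0.142 ± 0.0116 to 3.06 ± 1.17 RPKM and Sdr16c5, a retinol dehydrogenase, from 0.277 ± 0.149 to 5.69 ± 2.04 RPKM, well below their 29.6 and 20.4 RPKM in Mlkl-/- intestine. Hnf4aos, which is antisense to Hnf4a, rose from 0.172 ± 0.00148 to 4.86 ± 0.0171 RPKM, and because the use of strand in counting is not given in the sources used here, its reads and those of Hnf4a cannot be told apart.

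Fabp1, the fatty acid-binding protein of liver and proximal gut, was at 764, 542 and 918 RPKM with Casp1 and at 4430.5, 5314 and 5839.5 RPKM without it, below its mean of 7989 RPKM in Mlkl-/- intestine (log2 fold change 2.81 ± 0.28, adjusted p = 4.4e-06). Fabp2 rose from 1693 ± 257 to 8504 ± 1402 RPKM (SD, n = 3). Apoa4, an apolipoprotein of chylomicrons, was at 6009, 5506 and 6699.8 RPKM with Casp1 and at 16103, 20693 and 19353 RPKM without it (log2 fold change 1.62 ± 0.42, adjusted p = 0.0086). Apoa1, the most abundant member, rose from 7283 ± 686 to 18744 ± 2254 RPKM. These genes are among the most abundant of the tissue, and their shares enter the composition of the libraries given above. Apob, the structural protein of chylomicrons, was not called, at 74.0 ± 9.24 and 91.7 ± 5.62 RPKM.

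Transporters and enzymes repeated the pattern at lower levels. Slc2a2, the basolateral glucose transporter GLUT2, rose from 0.695, 0.179 and 0.688 RPKM to 7.27, 4.89 and 7.56 RPKM, against 26.6 RPKM in Mlkl-/- intestine (log2 fold change 3.66 ± 0.34, adjusted p = 2.6e-06). The chloride exchanger Slc26a3 rose from 5.97 ± 1.5 to 29.4 ± 5.13 RPKM and the proline transporter Slc6a20a from 2.48 ± 0.3 to 12.3 ± 1.14 RPKM (SD, n = 3). Adh1, an alcohol and retinol dehydrogenase, was at 11.9, 5.80 and 8.55 RPKM with Casp1 and at 139.6, 125 and 138 RPKM without it (log2 fold change 3.94 ± 0.22, adjusted p = 5e-08). Gstm3, a glutathione transferase, rose from 1.43 ± 0.370 to 15.4 ± 3.83 RPKM, and Rbp2, which carries retinol in enterocytes, from 651 ± 123 to 2359.9 ± 228 RPKM.

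Lct, the lactase on which suckling depends, was at 19.8, 11.7 and 23.3 RPKM with Casp1 and at 107, 111 and 136 RPKM without it, with no overlap and still below its mean of 272 RPKM in Mlkl-/- intestine (log2 fold change 2.69 ± 0.62, adjusted p = 0.0044). Alpi, intestinal alkaline phosphatase, rose from 239 ± 26.4 to 657 ± 15.8 RPKM (SD, n = 3), against 608 RPKM in Mlkl-/- intestine. The aminopeptidase gene Anpep was at 546 ± 89.7 and 1061 ± 15.6 RPKM and lay just under the threshold (log2 fold change 0.96 ± 0.32). Treh, which encodes trehalase, had 1 read with Casp1 and 105 without it, a ratio of 119 (counting interval 21.0 to 4757).

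Intestinal transcription factors had 3 members higher and 0 lower of 18 tested, and 2 higher with library totals. Ppara, a sensor of fatty acids, rose from 1.28 ± 0.212 to 5.21 ± 0.592 RPKM and Hnf4g, an enterocyte nuclear receptor, from 26.1 ± 3.78 to 85.7 ± 19.7 RPKM (SD, n = 3). Hnf4a, its relative, was at 154, 113 and 149.5 RPKM with Casp1 and at 212, 174 and 157 RPKM without it (log2 fold change 0.38 ± 0.20, not called).

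Other cell types of the gut wall were checked beside these rises. Over all genes tested, 5.72% were called lower and 5.6% higher. Goblet cell genes had 2 members lower and 0 higher of 12 tested, and between 1 and 5 lower when each library in turn was left out, with 5 without Casp1-deficient replicate 1. Muc2, the main mucin of the gut, fell from 159, 141 and 151 RPKM to 81.4, 51.5 and 43.4 RPKM (log2 fold change -1.36 ± 0.21), whereas Tff3 overlapped between the groups. Smooth muscle genes had 1 lower of 10 tested and a median log2 fold change of -0.65, enteric neuron and glia genes 2 lower of 12 and a median of -0.80, and fibroblast genes 0 lower of 9 and a median of -0.60. With library totals these counts of falls were 4, 7 and 2. Without Casp1-deficient replicate 1 no smooth muscle gene was lower, and without replicate 3 of that group 3 smooth muscle, 4 neuron and glia and 1 fibroblast genes were (1 fibroblast gene also without Casp1-intact replicate 2).

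The summed smooth muscle level was 2480.3, 1846 and 1767 RPKM in the Casp1-intact libraries and 896, 1394 and 1831 RPKM in the Casp1-deficient libraries, so that Casp1-deficient replicate 1 held the least of these transcripts. The part of such differences in the rise of the enterocyte genes was not tested. The small counts that follow stand beside 5.72% of all genes called lower and 5.6% called higher. Cell cycle genes had 0 of 20 called (1 lower with library totals) and stem cell genes 1 higher and 1 lower of 14. Erythroid and mesothelial genes had none called among 7 and 5 tested, and 1 mesothelial gene was higher without replicate 1 of either group. Pancreatic genes had 1 lower of 10, 2 without the filter and 3 with the groups compared alone. Endothelial genes had 3 lower of 11, 5 with library totals, and 1 without Casp1-intact replicate 1 or 3 or with a mean of at least 50 reads. Mast cell genes had 2 lower of 7, enteroendocrine and tuft cell genes 1 higher and 1 lower of 17, and genes of stomach and liver 2 higher and 2 lower of 10. The enteroendocrine and tuft cell member that rose was Leap2, given above as a gene of enterocytes. With library totals 3 enteroendocrine and tuft cell genes were lower and 1 stomach and liver gene was higher. With each library left out, enteroendocrine and tuft cell genes had 1 to 2 higher and 0 to 2 lower, and stomach and liver genes 1 to 2 higher.

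The same groups were then read against Mlkl-/- intestine, with the caution that the comparisons share libraries with one another and with the one above. Casp1-intact intestine had 2021 genes higher (10.4%) and 1466 lower (7.55%) than Mlkl-/- intestine. Casp1-deficient intestine had 1318 higher (6.79%) and 723 lower (3.73%). With library totals the counts were 2474 higher and 1186 lower with Casp1, and 1063 higher and 1115 lower without it. Of 40 interferon-stimulated genes, 40 were higher than in Mlkl-/- intestine with Casp1 and 39 without it, with median log2 fold changes of 4.18 and 4.97. Immunity-related GTPases had medians of 5.35 and 5.43, and MHC class I genes had medians of 2.34 and 2.68. For neutrophil genes the counts were 8 higher with Casp1 and 1 without it, and the medians were 4.04 and 0.24. Antimicrobial genes had 15 and 5 higher and medians of 3.91 and 1.00. MHC class II genes had 8 and 1 higher and medians of 1.36 and -0.01.

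The medians of the enterocyte lists lay below the reference with Casp1 and closer to it without. Lipid absorption genes had 17 lower and 0 higher with Casp1 and 2 lower and 1 higher without it, with medians of -1.46 and -0.11. Genes of xenobiotic and retinol metabolism had medians of -1.24 and -0.09, solute transporters of -0.85 and 0.26, and brush border enzymes of -0.55 and 0.15. Members went both ways without Casp1, with 4 solute transporters higher and 4 lower and 2 genes of xenobiotic and retinol metabolism higher and 2 lower, and Slc2a2, Abcb11 and Sdr16c5 called lower than in Mlkl-/- intestine. Lists of the gut wall lay further below the reference without Casp1. Enteric neuron and glia genes had 1 of 12 lower with Casp1 and 6 without it, with medians of -0.28 and -0.95. Smooth muscle genes had medians of 0.11 and -0.61 and fibroblast genes of -0.02 and -0.45.

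**Figure D4:**
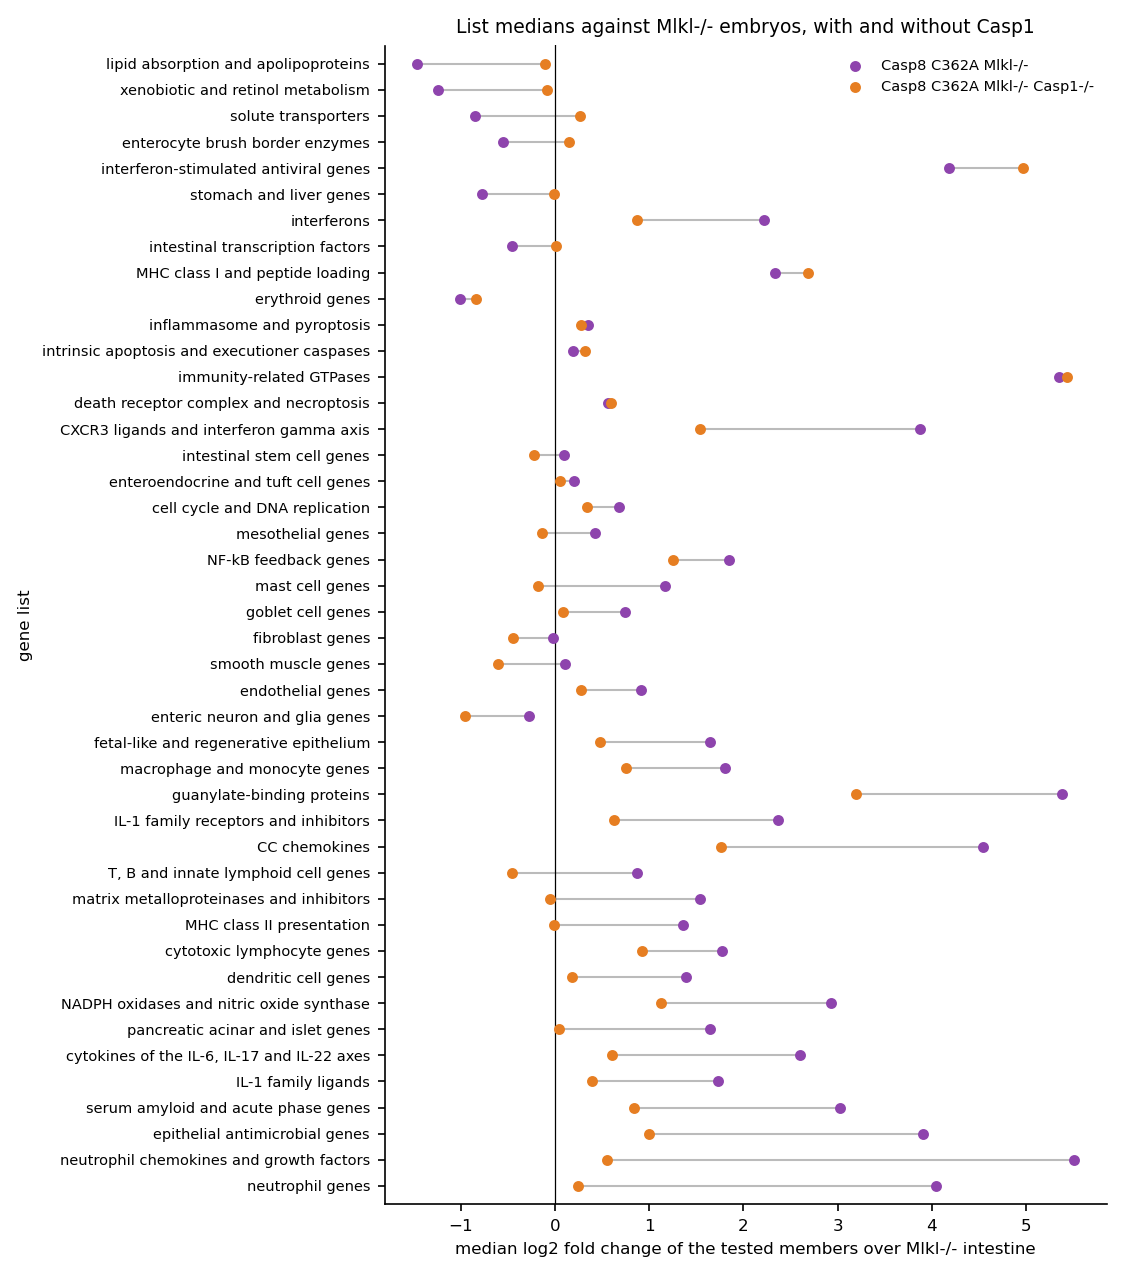
Median log2 fold change of the tested members of each list over Mlkl-/- intestine (x axis) in Casp8 C362A Mlkl-/- (purple) and Casp8 C362A Mlkl-/- Casp1-/- (orange) intestine; both are set against the same Mlkl-/- libraries. Interferon-stimulated genes and immunity-related GTPases lie at 4.18 to 5.43 in both, neutrophil genes move from 4.04 to 0.24, and lipid absorption genes from -1.46 to -0.11.

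Casp1 was also removed from Casp8 D387A/D387A Cflar-/- Mlkl-/- intestine, where 1658 genes rose (8.44%) and 923 fell (4.7%) of 19643 tested, in libraries that are not those of the C362A comparison. The difference between the Casp1 effects was tested in 1 fit as the interaction. The effect was more positive in the C362A background at 162 genes (0.825%) and more negative at 963 (4.9%). With library totals these were 103 and 1567 genes. Leaving out replicate 3 of the D387A Cflar Mlkl Casp1 group gave 1616 genes in all, of which 448 were more positive. The backgrounds differ in the Casp8 allele and in Cflar, which cannot be told apart, and the labels name no batch for any library. Their libraries also differed in the share of reads on genes. It was 85.0% to 88.0% of the deposited total in the D387A groups compared and 75.6% to 82.5% in the C362A groups. A difference between these sets of libraries cannot be told apart from one of genotype.

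The median log2 fold change of lipid absorption genes with Casp1 loss was 2.34 there and 1.45 in the C362A background, and 11 of 21 differed. The log2 difference, C362A minus D387A background, was -3.85 for Fabp1 (adjusted p = 3.5e-08). Outside that list it was -4.15 for the transporter gene Slc2a2 (adjusted p = 0.0012) and -4.66 for the lactase gene Lct (adjusted p = 0.00034). Mfsd4b1 and Serpina5 had the largest differences by the naming rule, of -5.73 and -4.68. Adh1 rose in both backgrounds, and the difference was -0.03 ± 0.52 (SE). Erythroid genes rose with Casp1 loss in the D387A background, at 7 of the tested members and a median of 1.93, and had none called in the C362A background. By the test of the difference, 1 of 8 was called, with a median of -1.69. Their part in the differences above was not tested.

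Inflammatory genes differed in both directions. The difference was -2.98 for Cxcl2 (adjusted p = 0.00034). It was also negative and called for the monocyte genes Ccr2 (-2.27) and Lyz2 (-2.06) and the inflammasome sensors Mefv (-2.34) and Nlrp3 (-1.56). Il1a, uncalled here, differed by -2.41 (adjusted p = 0.0098). Ccl5 differed by 2.65 (adjusted p = 0.0065), Ly6a by 2.56 (adjusted p = 0.0041) and Plscr2, a phospholipid scramblase gene, by 3.06 (adjusted p = 3.2e-05). Asz1 (3.61) and Akp3 (3.21), at or under about 1 RPKM in both groups here, were the other positive differences that the naming rule gave. Immunity-related GTPases had a median log2 fold change of -0.89 with 4 of 8 lower in the D387A background, against 0.07 and none here, and 4 of them differed. For Il1b the difference of -1.22 was not called (adjusted p = 0.061), nor was that for Reg3b (-1.43, adjusted p = 0.051).

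**Figure D5:**
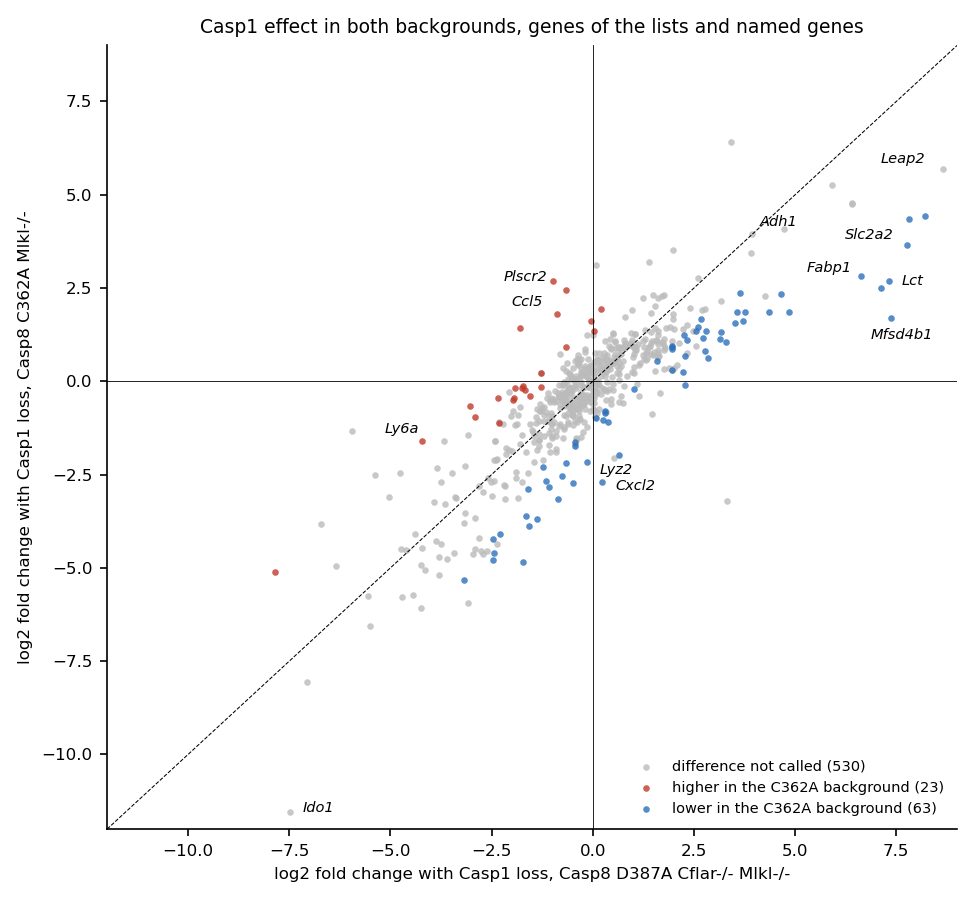
Log2 fold change with Casp1 loss in the Casp8 D387A Cflar-/- Mlkl-/- background (x axis) and the Casp8 C362A Mlkl-/- background (y axis) for 616 genes of the lists or named in the text, Casp1 left out; the dashed line marks equal effects. Red points (23) and blue points (63) are genes whose difference was called; Fabp1, Lct and Slc2a2 lie below the line at the right, and Ccl5 and Ly6a lie above it.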

How the data were processed

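The 6 libraries compared, the 3 of Mlkl-/- intestine and those of the D387A background were grouped by the genotypes in the sample labels. Reads were aligned by the authors with GSNAP to GRCm38. Unique alignments were kept, and the authors deposited raw read counts on the exons of each gene. They also deposited RPKM values on a larger library total, which served here only to obtain that total. The counting program, annotation and strand setting are not given in the sources used here, and the kit and instrument named by the labels differ from those of the paper, so which was used is not known.

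Deposited counts entered edgeR 4.0.16 (R 4.3.3) using filterByExpr (minimum count 10, minimum total 15), TMM and the quasi-likelihood test with Benjamini-Hochberg adjustment over all genes tested. The 9 libraries with Casp8 C362A and the 3 of Mlkl-/- intestine shared 1 fit, 12 in all, and the interaction was fitted on 30 intestine libraries. A prior count of 0.125 was used for fold changes, and a gene was called beyond a log2 fold change of 1 at an adjusted p under 0.05. A standard error is the log2 fold change over the square root of its F statistic. Levels in RPKM were computed anew from the counts, with gene widths as deposited and library sizes after TMM. Counting intervals for genes with 1 to 3 reads in a group are exact at 95% and, like floors, cover counting error only. Within each genotype the replicates differed by more than counting noise, and none was a copy. The p-values set each difference against the spread between numbered replicates within genotypes. That spread was estimated over all groups of a fit, with information shared between genes.

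Members and gene lists (45 lists, 652 genes) were chosen with earlier results of these data known. Genes named are the targeted genes, the 6 largest rises and falls with a symbol, groups that do not overlap and a mean of at least 1 RPKM in a group, up to 3 called members each way and the most abundant member of a list, and the 3 largest differences each way between backgrounds. Cxcl10 and Zbp1 were named as genes the study plots. Adgre1, Alpi, Apoa4, Apob, Casp4, Csf1r, Csf2, Fabp2, Hnf4a, Ifna4, Il1a, Irf1, Lcn2, Ltf, Reg3g and the neighbours of Casp1 on chromosome 9 were named after their values were seen, as were the 5 genes whose promoters are printed. Alternatives were size factors by relative log expression, library totals, no filter, a mean of at least 50 reads, DESeq2 1.42.0, limma-voom (limma 3.58.1), the groups compared alone, a block for the replicate number, and fits without each library. Scripts were tested on simulated data. A few genes that the naming rule gave are not reported here.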

Additional observations from a re-analysis of the deposited data

Results flagged for a closer look

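The Casp1 effect differed between the C362A Mlkl and the D387A Cflar Mlkl backgrounds at the following genes by the interaction test, an adjusted p under 0.05 and a log2 difference beyond 1. Values are log2 differences, C362A minus D387A background, and the backgrounds also differ in Cflar and in their sets of libraries, as given above. Among genes of enterocytes and metabolism they were -5.73 for Mfsd4b1, -4.68 for Serpina5, -4.66 for Lct, -4.15 for Slc2a2, -3.85 for Fabp1, -3.83 for Abcb11, -3.51 for Sdr16c5, -2.35 for Fabp2, -2.12 for Apoa4, -1.95 for Rbp2, -1.70 for Apob and -1.18 for Alpi, and 3.21 for Akp3. Among genes of myeloid cells and the IL-1 family they were -3.14 for Retnlg, -2.41 for Il1a, -2.37 for Acod1, -2.34 for Mefv, -2.34 for Osm, -2.27 for Ccr2, -2.18 for Cxcr2, -2.06 for Lyz2, -2.0 for Ly6c2, -1.80 for Il1rn and -1.56 for Nlrp3. Among chemokines they were -2.98 for Cxcl2, -2.21 for Ccl3, -1.84 for Ccl24, 1.69 for Ccl25 and 2.65 for Ccl5. Among genes of antigen presentation and interferon response they were -1.83 for Ciita, -1.77 for Gbp2b, -1.55 for H2-DMb2 and -1.24 for H2-DMa. The remaining values were -2.0 for Nox4, -1.34 for Cldn4, -1.33 for Tnfaip2, 1.63 for Trac, 2.56 for Ly6a, 2.69 for Serpina3n, 3.06 for Plscr2 and 3.61 for Asz1.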

How the results depend on the processing

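The count of 2196 genes changed by Casp1 loss ranged from 1483 (mean of at least 50 reads, where fewer genes were tested) to 2590 (library totals alone) over all alternatives, and from 2000 to 2174 with each library left out. Against Mlkl-/- intestine the counts ranged with each library left out from 3202 to 3697 with Casp1 and from 1688 to 2459 without it, and for the interaction from 844 to 1616, the last without replicate 3 of the D387A Cflar Mlkl Casp1 group. With library totals the split against Mlkl-/- was 1063 higher and 1115 lower for Casp1-deficient intestine, where 48.8% of called genes were higher in place of 64.6%, and for the interaction 103 higher and 1567 lower (1670 in all).

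With the replicate block 2145 genes were called. The deviations of same-numbered libraries correlated at -0.297, -0.036 and 0.0312, and those of differently numbered libraries between -0.285 and 0.29. The numbers thus gave no sign of pairing. With so few libraries and no litters named, this check cannot exclude it. Of the 124 named genes that were checked, all kept their direction and call with DESeq2, relative log expression, limma-voom and the replicate block. The direction reversed for Igtp (-0.00) and Cxcl10 (-0.25) with library totals, for Cxcl10 without Casp1-intact replicate 2 (-0.13) or Casp1-deficient replicate 2 (-0.09), and for Il1a (0.07) without Casp1-intact replicate 3. With each library left out, Cxcl10 ranged from -0.13 to 0.17 and Il1a from -0.26 to 0.07. With a mean of at least 50 reads, 5 CC chemokines and 4 genes of the IL-6 axes were called lower, since fewer were tested. In that setting 0 interferon genes were higher and 0 lower, and 0 cytotoxic lymphocyte genes were higher. Lymphoid genes had 0 lower and 1 higher, dendritic cell genes 2 lower, stomach and liver genes 0 lower and enteric neuron and glia genes 1 lower. By the threshold chosen, changes under a log2 fold change of 1 were not called whatever their p. Of the genes tested for Casp1 loss with 3 embryos a group, 6493 had an adjusted p under 0.05 by the edgeR test, and 2196 were called.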
